A study of Homo sapiens with 32 samples.

Results

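GATA4 and GATA6 are paralogous zinc-finger transcription factors, and all their N6-methyladenosine (m6A) peaks in the count table were followed across pancreatic differentiation. Peaks were assigned to the genes through the Ensembl identifier of each row. GATA4 (ENSG00000136574.17) had 7 peaks and GATA6 (ENSG00000141448.8) had 3, together 10 of the 26104 peaks and 2 of the 7978 genes in the table. The median gene had 2 peaks, and 10.3% of genes had at least the 7 of GATA4. Each peak goes by the start the table lists for it inside its gene, which gives for GATA4 the peaks 1051, 2801, 3701, 3951, 4051, 4151 and 4251 and for GATA6 the peaks 701, 2251 and 2751.

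The human embryonic stem cell lines H1 and MEL1 were sampled undifferentiated (S0) and, during differentiation in culture, as posterior foregut (S3), as pancreatic progenitors (S4) and as β-like cells that are still immature (S6). The study describes the replicates as independent biological samples. Each line and stage had 2 replicates, and from each of these 16 preparations an input library of mRNA fragments was sequenced beside an IP library, made from the fragments that an m6A antibody pulled down, so that more m6A at a site gives more IP reads relative to input reads. Each preparation is a bulk culture, so that fewer cells of a type and less RNA per cell cannot be told apart.

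GATA4 and GATA6 bind the short DNA motif that gave the family its name. They act together in early endoderm, where they help to open chromatin for other endoderm factors, and in the developing pancreas, heart, liver and gut. In people, loss of 1 copy of GATA6 is a known cause of failure of the pancreas to form. m6A is placed on mRNA by the METTL3 and METTL14 complex, is frequent in long exons and near stop codons, and is read by proteins that affect the decay and translation of the mRNA.

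Input libraries held 2652830 to 6879256 counted reads and IP libraries 2378881 to 15674899, and the least depth was in the MEL1 S4 IP libraries. Of input reads, 11.6% to 41% came from mitochondrial transcripts, with the highest shares in MEL1 at S0. In IP libraries this share was 0.0465% and 0.051% in H1 at S4 and 0.388% to 2.25% in all others. Its bearing on the H1 changes from S3 to S4 was not tested. Of the 7 measured among 24 endocrine markers, 6 were called higher at S6 than at S3, against 9.33% of all genes, among them CHGA (a secretory granule protein) by 6.73 on the log2 scale and GLIS3 (an islet transcription factor) by 2.11. Genes without a peak were not analysed here, among them the hormone genes INS, GCG and SST and 11 of 11 acinar markers. The β-like label could thus be checked here on few markers only. The study itself also gave flow cytometry for C-peptide at S6 and levels of β-cell marker genes. The summed level of 8 liver and gut markers was far higher in MEL1 than in H1 after S0. At S3 it was 36900 to 43000 CPM (normalised reads scaled to a common library size) in MEL1 and 524 to 533 CPM in H1, at S4 73200 to 75400 CPM and 223 to 251 CPM, and at S6 8460 to 8880 CPM and 433 to 452 CPM. Line means of GATA4 were 262 CPM in H1 and 578 CPM in MEL1 at S3, 98.2 and 141 CPM at S4, and 11.8 and 57.8 CPM at S6. The part of these cells in the GATA4 levels was not tested.

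Both genes were low in undifferentiated cells and rose at S3. After S3 they parted. GATA4 fell at each later stage, while GATA6 was at S6 still at 42.4% of its S3 level in H1 and at 71.9% in MEL1. The level of a gene is the sum of its input reads over its peaks, normalised by the trimmed mean of M-values (TMM) and given in CPM. To be called, a gene needed a 2-fold change or more together with an adjusted p below 0.1 in edgeR's quasi-likelihood test, run over all genes with cell line in the model.

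The GATA4 input level at S0 was 3.14 and 4.09 CPM in H1 and 3.29 and 6.31 CPM in MEL1, from 13 to 29 reads in each library. At S3 it was 263 and 261 CPM in H1 and 577 and 578 CPM in MEL1. The stages were far apart in both lines, and MEL1 was above H1 at S3. At S4 the level was 112 and 84.1 CPM in H1 and 137 and 145 CPM in MEL1, and at S6 it was 12.6 and 11 CPM in H1 and 63.1 and 52.4 CPM in MEL1. In order of level the stages ran S3, S4, S6 and S0, and no pair of neighbouring stages overlapped among the 4 preparations of each.

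The GATA6 input level at S0 was 1.21 and 1.36 CPM in H1 and 1.23 and 0.435 CPM in MEL1, from 2 to 6 reads in each library. At S3 it was 57.2 and 54.6 CPM in H1 and 72.3 and 77.6 CPM in MEL1. At S4 it was 32.8 and 36.1 CPM in H1 and 40.3 and 49.4 CPM in MEL1. These values lay below every S3 preparation. At S6 the level was 23.8 and 23.6 CPM in H1 and 53.4 and 54.5 CPM in MEL1, so that S4 and S6 overlapped and could not be ordered, and the lines lay on either side of S4.

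**Figure D1:**
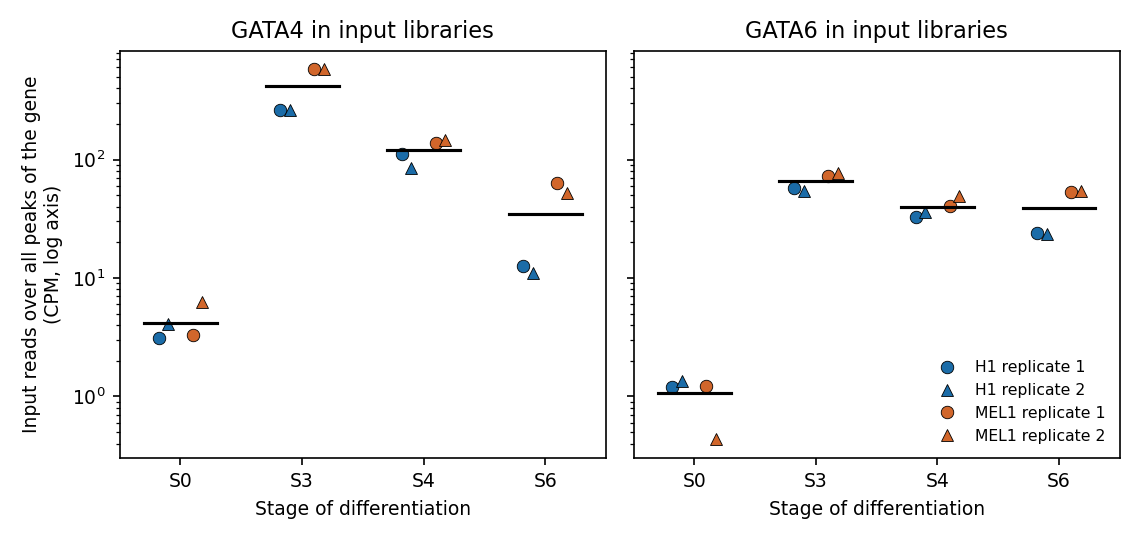
Input level of GATA4 (left) and GATA6 (right) in CPM on a log axis against stage, with 1 point for each of the 16 input libraries (blue H1, orange MEL1) and a black bar at the mean of the 4 libraries of a stage. Both genes rise at S3. GATA4 then falls to a mean of 34.8 CPM at S6, while the mean of GATA6 is 39.7 CPM at S4 and 38.8 CPM at S6.

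In mean ± SD over 4 preparations, GATA4 went from 4.21 ± 1.46 CPM at S0 to 420 ± 182 at S3, then 120 ± 27.4 at S4 and finally 34.8 ± 26.9 at S6. GATA4 was called higher at S3 than at S0, by 6.56 on the log2 scale (SE 0.39, adjusted p = 8.01e-09, edgeR with the Benjamini-Hochberg method). In the corresponding means GATA6 had 1.06 ± 0.422, 65.4 ± 11.3, 39.7 ± 7.19 and 38.8 ± 17.5 CPM. GATA6 was called higher at S3 by 5.90 (SE 0.33, adjusted p = 4.18e-09, edgeR). Of all 7973 genes tested, 28.8% were called in this comparison in either direction.

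From S3 to S4 GATA4 fell by 1.69 on the log2 scale (SE 0.30, adjusted p = 0.0106, edgeR) and was called, against 1.84% of all genes. With both MEL1 S4 preparations left out its change was -1.33 (adjusted p = 0.124, edgeR) and with no cell line in the model -1.81 (adjusted p = 0.243, edgeR), and neither was called. The change of GATA6 was -0.72 (SE 0.24, adjusted p = 0.164, edgeR), which was not called.

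From S4 to S6 GATA4 fell by a further 2.08 (SE 0.31, adjusted p = 0.00136, edgeR) and was called, against 5.18% of all genes. Without the cell line in the model this change was -1.79 (adjusted p = 0.103, edgeR). The change of GATA6 was -0.11 (SE 0.24, adjusted p = 0.851, edgeR). It was not called and its sign differed between the lines, at -0.54 in H1 and 0.26 in MEL1.

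From S3 to S6 GATA4 fell by 3.78 (SE 0.33, adjusted p = 2.8e-06, edgeR) and was called, against 14% of all genes. GATA6 had a change of -0.82 (SE 0.24, adjusted p = 0.0262, edgeR), under the 2-fold limit and so not called. In H1 4.51% of the S3 level of GATA4 was left at S6 and in MEL1 10%, both far below the shares left for GATA6. The highest S6 value of GATA6, 54.5 CPM in MEL1, was just under its lowest S3 value, 54.6 CPM in H1. Within each line S3 and S6 were further apart. In H1 the values were 57.2 and 54.6 CPM at S3 against 23.8 and 23.6 CPM at S6. In MEL1 they were 72.3 and 77.6 CPM against 53.4 and 54.5 CPM.

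The divergence was then tested within each library, as the log2 ratio of GATA6 to GATA4 input reads, in which depth and gene length cancel when stages are compared. The GATA6 share of the reads of both genes depends on the lengths of their peaks, so its change carries the comparison and not its level. At S3 GATA6 made up 17.8% and 17.3% of these reads in H1 and 11.1% and 11.8% in MEL1. At S4 it made up 22.6% and 30% in H1 and 22.7% and 25.4% in MEL1. At S6 it made up 65.4% and 68.2% in H1 and 45.8% and 50.9% in MEL1. The 3 stages did not overlap, and at S6 the H1 preparations lay above the MEL1 ones.

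**Figure D2:**
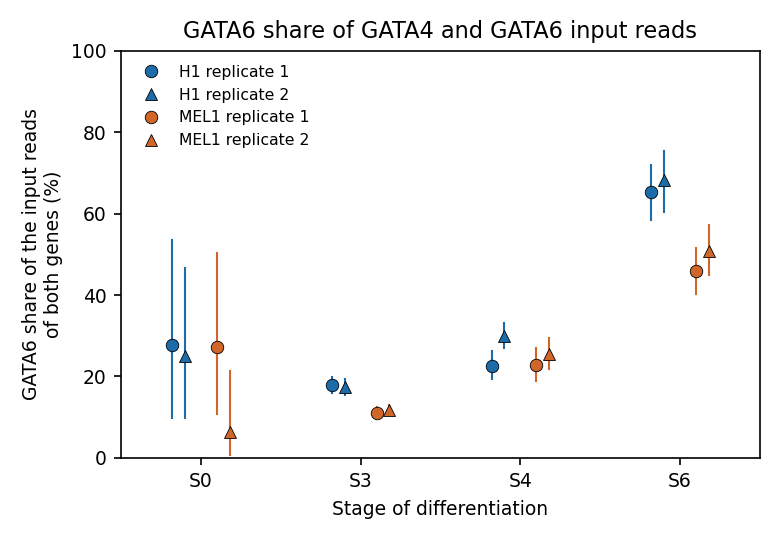
Share of GATA6 among the input reads of both genes, in percent, against stage for the 16 preparations (blue H1, orange MEL1), with exact 95% binomial intervals as vertical lines, which cover counting error only. The share is 11.1% to 17.8% at S3, 22.6% to 30% at S4 and 45.8% to 68.2% at S6.

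The mean log2 ratio was -2.59 ± 0.42 at S3, -1.57 ± 0.26 at S4 and 0.45 ± 0.65 at S6 (SD, n = 4 preparations each). It rose by 1.01 from S3 to S4, by 2.03 from S4 to S6 and by 3.04 from S3 to S6. Each of these 3 changes had p = 0.0286 in an exact two-sided permutation test over the 70 arrangements of 4 against 4 preparations, which is the smallest p this design allows, and 0.0286 after Benjamini-Hochberg adjustment over the 3. The 2 lines gave 3.23 in H1 and 2.85 in MEL1 from S3 to S6. Without H1 S4 replicate 2 the change from S3 to S4 was 0.89 with p = 0.0571 in the exact permutation test. With stage labels permuted only within each line the exact p was 0.0556 for all 3 changes, the smallest that test can give.

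At S0 the ratio rested on 2 to 6 GATA6 reads per library. Its mean was -1.93 ± 1.09 (SD, n = 4), and MEL1 S0 replicate 2 stood apart at -3.56.

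In the IP libraries the balance also moved towards GATA6. GATA4 peaks took 25656 and 26405 IP reads in H1 and 42538 and 41661 in MEL1 at S3, and 397 and 634 in H1 and 2056 and 1542 in MEL1 at S6. GATA6 peaks took 4496 and 4769 in H1 and 5274 and 3767 in MEL1 at S3, and 1231 and 1675 in H1 and 2130 and 1163 in MEL1 at S6. The log2 ratio of GATA6 to GATA4 IP reads rose by 3.53 from S3 to S6 (exact two-sided permutation p = 0.0286, the smallest this design allows).

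The lines differed in how far GATA4 fell. From S4 to S6 its log2 change was -3.04 (SE 0.20) in H1 and -1.29 (SE 0.18) in MEL1, a difference of 1.75 (SE 0.27, adjusted p = 9.58e-05, edgeR interaction of line and stage) that was called, against 15.3% of all genes. From S3 to S6 the change was -4.46 in H1 and -3.32 in MEL1, a difference of 1.14 (SE 0.26, adjusted p = 0.00338, edgeR), also called, against 18.9% of genes. Neither gene was called for a line difference from S0 to S3 or from S3 to S4, where 34% and 9.65% of all genes were. From S0 to S3 a call was gained with 1 preparation left out, for GATA4 without MEL1 S0 replicate 2 (1.28 in place of 0.75, adjusted p = 0.0221, edgeR) and for GATA6 without MEL1 S0 replicate 1 (1.92 in place of 1.02, adjusted p = 0.0993, edgeR). For GATA6 the line difference was 0.81 (SE 0.29, adjusted p = 0.0566, edgeR) from S4 to S6 and 0.76 (SE 0.28, adjusted p = 0.0556, edgeR) from S3 to S6, both under 2-fold. At S6 both genes were higher in MEL1 than in H1.

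Other members of the GATA family and their cofactors were read from a list of 10 genes, of which 4 had peaks. GATA5, another endodermal GATA factor, went from 58.4 CPM at S3 to 17.3 at S6, a log2 change of -0.80 (SE 0.51, adjusted p = 0.326, edgeR) that was not called, and its change was 0.89 in H1 alone and -2.04 in MEL1 alone. GATA3, better known from T cells and trophoblast, stayed between 2.27 and 5.34 mean CPM from S3 to S6 with a change of 0.37 (SE 0.55). TRPS1, an atypical GATA-type repressor, rose from S3 to S6 by 1.37 (SE 0.43, adjusted p = 0.0381, edgeR), but its change without H1 S3 replicate 1 was 1.22 (adjusted p = 0.103, edgeR) and in MEL1 alone 1.11 (adjusted p = 0.209, edgeR), neither called. KLF13, a Krüppel-like factor that can bind GATA4, rose by 1.33 (SE 0.30, adjusted p = 0.00684, edgeR). Of these 4, 2 were called higher and 0 lower from S3 to S6, against 9.33% and 374 of 7973 genes, with a median change of 0.85 against -0.01 over all genes.

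Some foregut factors fell beside GATA4. Of 16 definitive endoderm and foregut markers 13 were measured, and from S3 to S6 6 were called lower and 2 higher, with a median change of -1.27 against -0.01 over all genes, of which 374 of 7973 were called lower and 9.33% higher. FOXA2, a pioneer factor of endoderm, went from 593 CPM at S3 to 103 at S6, a log2 change of -2.52 (SE 0.23), between those of the 2 GATA genes. FOXA1, its close relative, changed by -1.64 (SE 0.25), FOXA3 by -2.48 (SE 0.41) and CER1, a secreted NODAL antagonist, by -3.67 (SE 0.85). HNF4A, a regulator of liver and gut epithelium, changed by -1.48 (SE 0.43). These 5 were called at adjusted p from 3.95e-06 to 0.0277 (edgeR), although HNF4A was not called in H1 alone (-0.95), with no cell line in the model (-1.97, adjusted p = 0.381, edgeR), without MEL1 S6 replicate 1 (adjusted p = 0.1, edgeR) or without MEL1 S6 replicate 2 (adjusted p = 0.107, edgeR). The chemokine receptor CXCR4 rose by 3.83 (SE 0.48) and KLF5 by 1.88 (SE 0.23), so the list did not move 1 way.

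**Figure D3:**
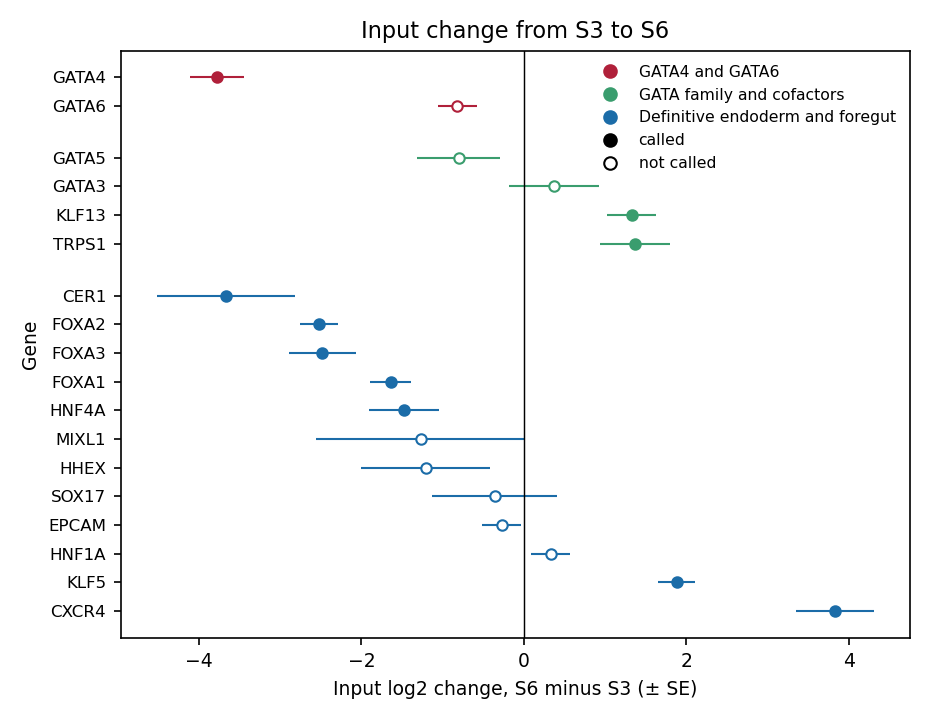
Input log2 change from S3 to S6 with its SE (horizontal lines) for GATA4 and GATA6 (red), the 4 measured family members and cofactors (green) and definitive endoderm and foregut markers (blue). Filled points were called and open ones were not. GATA4 at -3.78 sits beside CER1 at -3.67 at the low end, and GATA6 at -0.82 is level with GATA5 at -0.80.

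From S3 to S4 the same foregut list had 2 genes called lower and 1 higher, with a median of -0.61 against 0.02 over all genes, of which 28 of 7973 were called lower and 1.49% higher. FOXA2 fell by 1.41 (SE 0.22, adjusted p = 0.00481, edgeR), beside the -1.69 of GATA4, and was not called with no cell line in the model (-1.48, adjusted p = 0.127, edgeR). Of 11 measured pancreatic progenitor markers, 1 was called higher from S3 to S4 (PROX1, an endodermal homeobox factor, 2.06) and 3 were from S3 to S6 (PROX1, SOX9 and HES1), and 0 were called lower in either. From S3 to S6 9.33% of all genes were called higher and 374 of 7973 lower. SOX9 rose by 1.31 (SE 0.51, adjusted p = 0.0928, edgeR) and HES1 by 1.29 (SE 0.30), but in H1 alone the values were -0.55 and 0.30. The SOX9 rise was not called without any 1 of the 4 MEL1 S3 and S6 preparations (0.98 to 1.04) with both MEL1 S4 preparations left out (1.18), with no cell line in the model (1.37), with only the libraries of the 2 stages (1.14) or with the replicate number as a block (1.31, adjusted p = 0.138, edgeR). The S4 rise of PROX1 was not called with both MEL1 S4 preparations left out (1.89, adjusted p = 0.12, edgeR).

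Of the 8 liver and gut markers measured, 0 were called from S3 to S4, against 1.84% of all genes. The summed level of these markers in that step went down in H1 and up in MEL1, as given above. From S3 to S6 6 were called lower, against 374 of 7973 genes, with APOB (an apolipoprotein) at -4.00 (SE 0.35), AFP (the fetal serum protein) at -4.46 (SE 0.66) and VTN (vitronectin) at -2.54 (SE 0.48). With no cell line in the model none of these 3 was called (adjusted p = 0.116, 0.251 and 0.538, edgeR). GATA4 and GATA6 are also used in mesenchyme and heart, and of 7 measured markers of these 0 were called from S3 to S4, against 1.84% of all genes, and 1 in each direction from S3 to S6, against 14%. Their summed level was 179 to 193 CPM at S3, 164 to 860 CPM at S4 and 248 to 346 CPM at S6, and the high S4 values were the 793 and 860 CPM of MEL1. Of 10 markers of undifferentiated cells, 1 was called lower from S3 to S4 and 4 from S3 to S6, against 28 and 374 of 7973 genes. Their summed level went from 1990 to 2070 CPM at S3 to 1190 to 1220 CPM at S6 in H1, and from 534 to 569 CPM to 680 to 686 CPM in MEL1. Of 4 measured duct markers, 2 were called higher from S3 to S6, against 9.33% of all genes, and 0 lower. The part of these other cell types in the GATA4 and GATA6 levels was not tested.

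Genes with a course most like each paralogue were found by Pearson correlation of log2 CPM over the 16 input libraries among the 6525 genes whose mean level reached 5 CPM. These libraries share lines and stages, and the correlations are descriptive. The correlation of GATA4 with GATA6 was 0.87, and 0.86 over the 12 libraries of S3, S4 and S6. Ranked by likeness to GATA4, GATA6 was number 92, and ranked by likeness to GATA6, GATA4 was number 193.

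Closest to GATA4 were LINC00261 (0.965), a long noncoding RNA encoded next to FOXA2, ENSG00000283932 (0.964), DCAF5 (0.959), a substrate receptor of a ubiquitin ligase, LINC00479 (0.956) and ROR2 (0.949), a receptor for Wnt ligands. LINC00261 went from 905 CPM at S3 to 195 at S4 and 46.5 at S6, and ENSG00000283932 ran from 1010 to 223 and 52.5, so close that the 2 may share reads. Their r stayed between 0.90 and 0.94 without S0. At the other end were IFITM1 (-0.954), VSNL1 (-0.946), HMGCS1 (-0.929), PDZD4 (-0.926) and VGF (-0.923). IFITM1, an interferon-induced membrane protein, went from 27.6 CPM at S3 to 496 at S6.

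Closest to GATA6 were FOXA1 (0.982), FOXP4 (0.976), FOXA2 (0.974), ASXL1 (0.968) and PLEKHA6 (0.965). The first 3 are forkhead factors and ASXL1 is a chromatin regulator. Over the 12 libraries without S0 FOXA1 kept an r of 0.94 and FOXA2 one of 0.86, while FOXP4 had 0.57, PLEKHA6 0.55 and ASXL1 -0.05, so that likeness to GATA6 in the last 3 lay mostly in the step from S0. Furthest from it were USP9X (-0.965), CDYL (-0.959), PHC1 (-0.956), PHC1P1 (-0.955) and ENSG00000255872 (-0.95). Without S0 their r in the same order was -0.34, -0.24, 0.45, 0.53 and -0.30. PHC1P1 is a pseudogene of PHC1, a Polycomb protein, and their reads may not be separable.

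Within each gene 1 peak held most of the m6A signal. Peak 2801 took 88.2% to 89.7% of the GATA4 IP reads at S3, against 60.5% to 66.7% of its input reads. Peak 2251 took 84.7% to 92.4% of the GATA6 IP reads at S3, against 58.9% to 79.2% of its input reads. IP over input below is the fitted log2 ratio in a model of all 32 libraries with stage, library type, their interaction and cell line, over all 26104 peaks. The median of all peaks was 0.28 in S0 cells, 0.07 in S3 cells, -0.30 in S4 cells and -0.12 in S6 cells.

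GATA4 peak 2801 had 808 and 765 input reads and 23002 and 23655 IP reads in H1 at S3, and 1485 and 1707 input reads and 37663 and 36756 IP reads in MEL1. Its IP over input in the single preparations was 3.12 and 3.17 in H1 and 2.79 and 2.75 in MEL1. At S4 it was 1.51 and 2.26 in H1 and 1.39 and 1.48 in MEL1, and at S6 1.41 and 1.93 in H1 and 1.52 and 2.06 in MEL1. Every S3 preparation was above every S4 and S6 preparation, and S4 and S6 overlapped.

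Fitted to all libraries, IP over input of peak 2801 was 2.96 at S3 (SE 0.38, adjusted p = 1.61e-07), 1.74 at S4 (SE 0.36, adjusted p = 0.000236) and 1.75 at S6 (SE 0.37, adjusted p = 0.000184), each called (edgeR). At S3 5.55% of all peaks had an IP over input at or above it, at S4 13.2% and at S6 20.3%.

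At S0 it was 0.65 (SE 0.40, adjusted p = 0.172, edgeR), which was not called. It stood at -0.03 and -0.49 in H1, from 32 and 38 IP reads, and at 2.31 and 0.55 in MEL1, from 202 and 136 IP reads on 12 and 23 input reads. MEL1 S0 replicate 1 was thus the high one. Without H1 S0 replicate 2 the value was 1.02 (adjusted p = 0.0691, edgeR) and called, in MEL1 alone it was 1.42 and called, and in H1 alone it was -0.21.

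GATA6 peak 2251 had 171 and 156 input reads and 3935 and 4212 IP reads in H1 at S3, and 229 and 226 input reads and 4466 and 3481 IP reads in MEL1. Its IP over input in the single preparations was 2.81 and 2.97 in H1 and 2.41 and 2.27 in MEL1 at S3, 3.02 and 2.30 in H1 and 1.32 and 1.31 in MEL1 at S4, and 2.14 and 2.28 in H1 and 1.63 and 1.65 in MEL1 at S6. H1 was above MEL1 at each of these stages, and the stages overlapped in part. At S0 it was between -1 and -0.41 in all 4 preparations, from 5 to 14 IP reads and 2 to 6 input reads each.

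Fitted to all libraries, peak 2251 had 2.60 at S3 (SE 0.35, adjusted p = 3.68e-07), 2.08 at S4 (SE 0.35, adjusted p = 1.38e-05) and 1.87 at S6 (SE 0.34, adjusted p = 3.57e-05), each called (edgeR), and -0.61 at S0 (SE 0.47, adjusted p = 0.28, edgeR), not called. At S3 9.38% of all peaks were at or above it, at S4 8.52% and at S6 18.3%.

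**Figure D4:**
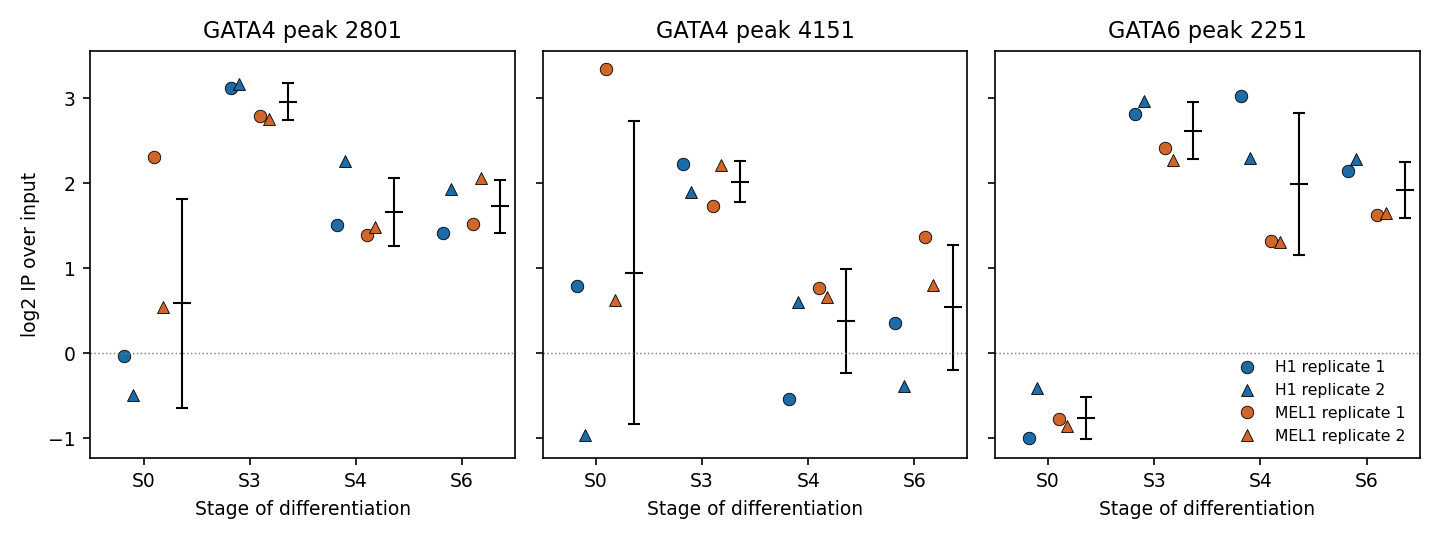
log2 IP over input in each of the 16 preparations for GATA4 peaks 2801 and 4151 and GATA6 peak 2251 against stage (blue H1, orange MEL1), with mean ± SD of the 4 preparations in black and a dotted line at 0. Peak 2801 is at 2.75 to 3.17 at S3 and 1.39 to 2.26 at S4, peak 4151 has a mean of 2.02 at S3 and 0.38 at S4, and peak 2251 is below 0 in all 4 S0 preparations.

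With cell line in the model, 1 of the 10 peaks was called for a change in IP over input, GATA6 peak 2251 from S0 to S3, where it rose by 3.21 (SE 0.59, adjusted p = 0.0227, edgeR). It was 1 of the 0.0498% of all peaks (13 of 26104) called there. The S0 side of this change rests on at most 14 IP reads, and without H1 S0 replicate 1, H1 S3 replicate 1, H1 S3 replicate 2 or MEL1 S0 replicate 1 the change was 3.10 to 3.17 and not called (adjusted p from 0.106 to 0.161, edgeR). GATA4 peak 2801 had a change of 2.31 (SE 0.54, adjusted p = 0.199, edgeR) from S0 to S3, which was not called, and 1.14% of all peaks had a change at or above it. It was called by DESeq2 at 2.26 (adjusted p = 0.034), with a block for each preparation, which pairs its IP and input library, at 2.32 (adjusted p = 0.0834, edgeR), with both MEL1 S4 preparations left out at 2.37 (adjusted p = 0.033, edgeR) and without MEL1 S0 replicate 1 at 2.91 (adjusted p = 0.0409, edgeR).

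After S3, 0 of the 10 peaks were called for a change by edgeR or by DESeq2 with cell line in the model. With a block for each preparation 2 GATA4 peaks were called lower from S3 to S4, 2801 at -1.30 (SE 0.41, adjusted p = 0.0795, edgeR) and 4151 at -1.61 (SE 0.51, adjusted p = 0.0852, edgeR), where 7.29% of all peaks were called, and 0 of the 10 from S4 to S6 or from S3 to S6. With cell line in the model the shares of all peaks called by edgeR were 6.6% from S3 to S4, 7.58% from S4 to S6 and 0% from S3 to S6. At an unadjusted p under 0.05 by edgeR, there were 2 GATA4 peaks from S3 to S4 (2801 and 4151), 0 from S4 to S6 and 3 from S3 to S6 (2801, 4151 and 4251), and 0 GATA6 peaks in each. At the same limit DESeq2 gave 1, 0 and 3 of the 10, and its count over all peaks at that limit was not taken. Over all 26104 peaks 4767 were under that limit by edgeR from S3 to S4, 5282 from S4 to S6 and 756 from S3 to S6. After adjustment DESeq2 called 2020 of all peaks from S3 to S4, 3449 from S4 to S6 and 4 from S3 to S6.

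From S3 to S4 peak 2801 had a change of -1.23 (SE 0.50, adjusted p = 0.175, edgeR) and peak 2251 one of -0.52 (SE 0.47, adjusted p = 0.613, edgeR), beside a median of -0.36 over all peaks. From S3 to S6 the values were -1.21 (SE 0.50) and -0.73 (SE 0.47), with an adjusted p of 1 for both (edgeR) and a median of -0.20. From S4 to S6 they were 0.01 (SE 0.49) and -0.21 (SE 0.47), beside 0.19. These medians depend on the scaling: with size factors of the relative log expression method (RLE) they were 0.12 from S3 to S4, -0.07 from S3 to S6 and -0.15 from S4 to S6, and 45.1% of the calls from S3 to S4 were higher in place of 11.4%, and 43.7% of those from S4 to S6 in place of 70.1%. Peak 2801 was called from S3 to S4 in H1 alone (-1.23), where 46.2% of all peaks were called. It was also called in MEL1 alone (-1.26, against 12.7% of all peaks) and with only the libraries of those 2 stages (-1.23, against 5.65%). With 1 preparation left out it ran from -1.49 to -0.72, not called in any of the 8, and the weakest value was that without H1 S4 replicate 1. Its IP reads alone, with no input, fell by 2.49 from S3 to S4 and by 4.73 from S3 to S6, while those of peak 2251 fell by 1.23 from S3 to S6. All 3 were called, against 9.16% of all peaks from S3 to S4 and 6.7% from S3 to S6. IP reads alone also follow the level of the transcript, and GATA4 input changed by -1.69 and -3.78 in these steps.

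The lines differed in the S0 to S3 change of peak 2801, with 3.39 in H1 and 1.34 in MEL1, a difference of -2.06 (SE 0.55, adjusted p = 0.0205, edgeR), called against 12.2% of all peaks. At S0 the MEL1 values were above the H1 values, and the difference was not called without H1 S0 replicate 2 (-1.80, adjusted p = 0.169, edgeR) or without MEL1 S0 replicate 1 (-1.20, adjusted p = 0.116, edgeR). For peak 2251 the S0 to S3 difference between the lines was -0.34 (SE 0.89). From S3 to S4 GATA4 peak 3951 was called, at a difference of 3.97 (SE 1.66, adjusted p = 0.0898, edgeR), where 29.4% of all peaks were. It was not called without H1 S4 replicate 1, which had 0 IP reads on 55 input reads, nor without any of 5 other preparations (3.10 to 4.16 over these 6, adjusted p from 0.164 to 0.289, edgeR). None of the 10 was called for a line difference from S4 to S6 or from S3 to S6, where 21.1% and 0.621% of all peaks were.

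At S3 edgeR called 4 of the 10 peaks above input, 2 in each gene, against 30.3% of all peaks, and 0 below, against 31%. DESeq2 called 2 GATA4 peaks and 1 GATA6 peak above input, against 20.4% of all peaks, and 1 GATA4 peak below, against 10572 of 26104. Beside peaks 2801 and 2251 these were GATA4 peak 4151 at 2.01 (SE 0.39, adjusted p = 8.18e-05, edgeR) and GATA6 peak 2751 at 1.31 (SE 0.61, adjusted p = 0.0653, edgeR). Peak 4151 had 1229 and 1212 IP reads in H1 and 3153 and 3145 in MEL1 at S3 and 45 to 118 at S4. Its IP over input was 1.73 to 2.23 at S3, above all 4 S4 values of -0.54 to 0.77, and its S3 to S4 change of -1.61 (SE 0.56, adjusted p = 0.102, edgeR) was not called. It was called in H1 alone (-1.87), with only the libraries of those 2 stages (-1.58) and with both MEL1 S4 preparations left out (-1.86). These settings called 46.2%, 5.65% and 20.9% of all peaks in that step. Peak 4151 was also called without MEL1 S4 replicate 1 (-1.71) and with the block for each preparation given above. With 1 preparation left out it ran from -1.75 to -0.87, the weakest value being that without H1 S4 replicate 1, and it was not called in MEL1 alone or by DESeq2.

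GATA6 peak 2751 was not called at S3 without H1 S3 replicate 2, MEL1 S3 replicate 1 or MEL1 S3 replicate 2 (1.13 to 1.39), nor by DESeq2 (0.63), with RLE size factors (0.63), with upper quartile normalisation (1.10) or with IP libraries thinned to the same depth (0.78). At S4 and S6 only peaks 2801 and 2251 were called above input, 2 of 10 at each stage against 20.8% and 28.4% of all peaks.

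GATA4 peaks 3951 and 4251 were called below input at S4 and at S6, 2 of 10 peaks against 32.1% and 34.6% of all peaks. The peaks between them, 4051 and 4151, had 0.38 and 0.40 at S4 and -0.27 and 0.70 at S6 and were not called. Peak 3951 had 55, 53, 44 and 24 input reads at S4 and 0, 12, 28 and 6 IP reads, an IP over input of -2.96 (SE 0.86, adjusted p = 0.00576, edgeR), and -1.73 (adjusted p = 0.1, edgeR) and not called without H1 S4 replicate 1. Its value at S6 was -1.84 (SE 0.92, adjusted p = 0.0875, edgeR), and it was not called there without any 1 of the 4 preparations (-2.08 to -1.49). Peak 4251 had -1.49 (SE 0.66, adjusted p = 0.0615, edgeR) at S4 and -2.74 (SE 0.86, adjusted p = 0.00732, edgeR) at S6, the latter from 0 to 6 input reads and 0 to 5 IP reads. The S4 call was lost without either H1 S4 preparation (-1.25 and -1.09), with upper quartile normalisation (-1.24), with IP and input normalised separately (-0.94), with no cell line in the model (-1.34) and in MEL1 alone (-1.10). With a block for each preparation peak 3951 was also called below input at S3 (edgeR).

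At S0 1 of the 10 peaks was called above input, against 30.7% of all peaks, and 0 below, against 24.9%. It was GATA4 peak 4251, with at most 1 input read in each library and 1, 3, 21 and 20 IP reads, and it was not called without either MEL1 S0 preparation, with RLE size factors (adjusted p = 0.158, edgeR) or by DESeq2 (adjusted p = 0.154). DESeq2 called 0 of the 10 above input at S0 and 3 below it, 1 of GATA4 and 2 of GATA6, among them peak 2251 (-1.26), where it called 20.8% of all peaks above and 9063 of 26104 below. No other peak of these genes but 2801 and 2251 had more than 3 input reads in any S0 library, so the S0 values of the lesser peaks rest on very few reads.

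**Figure D5:**
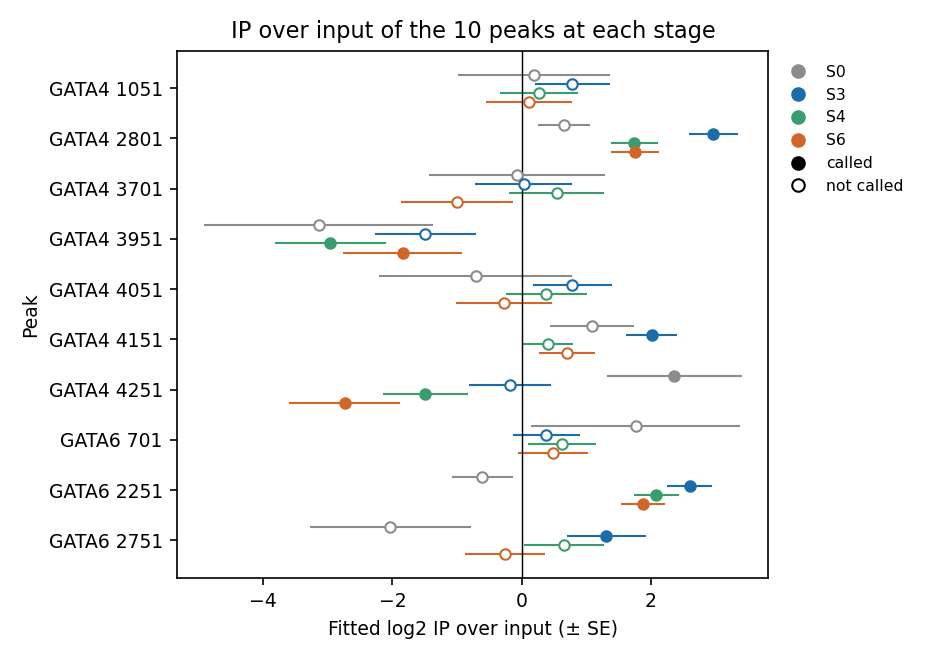
Fitted log2 IP over input with its SE (horizontal lines) for the 7 GATA4 and 3 GATA6 peaks, in order of position, coloured by stage (S0 grey, S3 blue, S4 green, S6 orange). Filled points were called and open ones were not. Peaks 2801 and 2251 are the only ones called above 0 at each of S3, S4 and S6, and peaks 3951 and 4251 are called below 0 at S4 and S6.

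A comparison within each gene does not depend on how IP and input libraries are scaled. The log2 odds of IP against input reads in the dominant peak, relative to the other peaks of the gene in the same preparation, were computed after the values above had been seen and carry no test. For GATA4 they were 2.25 ± 0.29 at S3, 1.89 ± 0.40 at S4 and 1.94 ± 0.23 at S6 (SD, n = 4). For GATA6 they were 1.98 ± 0.97, 1.37 ± 0.99 and 1.66 ± 0.78. For GATA4 both S3 values were above both S4 values in each line, with 2.49 and 2.50 against 2.03 and 2.39 in H1 and 1.91 and 2.10 against 1.53 and 1.59 in MEL1. MEL1 S6 replicate 2 (2.17) was above both MEL1 S3 values, and the other S6 values were below the S3 values of their line. For GATA6 S3 and S4 overlapped in both lines, with H1 S4 replicate 1 (2.71) above both H1 S3 values (2.29 and 2.40). After S0 the log2 odds were above 0 in every preparation for both genes.

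The scaling of IP against input moves every enrichment. With RLE size factors the median of all peaks in stage order became -0.34, -0.57, -0.46 and -0.62, and the share called above input 19.6%, 19.4%, 17.9% and 20.2%. Peaks 2801 and 2251 stayed called above input at S3, S4 and S6 under each normalisation tried.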

How the data were processed

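The deposited table holds raw read counts per peak, which the authors made from m6A-seq with MeRIPtools in 50 bp bins over Ensembl 94 genes, and it was used with no change. The genome build is not given in the sources used here, so no coordinates or sequences are printed. Gene input was the sum over a gene's peaks, because the table lists peaks. Of 7978 gene identifiers 7938 were found in a symbol table. Features with at least 10 reads in total were tested with edgeR 4.0.16 (R 4.3.3, limma 3.58.1), with TMM factors, quasi-likelihood F-tests and Benjamini-Hochberg adjustment over all features, and a prior count of 1. The GATA6 to GATA4 ratio had a pseudocount of 0.5 and an exact permutation test. Named were all 10 peaks, the 5 genes most and least like each paralogue (mean CPM of at least 5) and members of the marker lists whose value a sentence needed. The members and lists were chosen with earlier results of these data known. Alternatives included DESeq2 1.42.0, other normalisations and filters, single lines, the replicate block, a block for each preparation (its IP and input library come from the same RNA) and leaving out each preparation. Only edgeR's tests of the input change and of the change in IP over input, both from S3 to S6, were tried on simulated data. Figures used matplotlib 3.10.9. Some list members are not reported here by name.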

Additional observations from a re-analysis of the deposited data

Results flagged for a closer look

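Of 32 groups of 4 preparations checked, 5 held a preparation whose gap to its nearest neighbour, as a share of the range of the group, passed the 95% critical value of Dixon, where chance gives about 1 in 20. MEL1 S0 replicate 2 was low for GATA6 input, at -0.58 log2 CPM from 2 reads (gap 0.881 of the range), and for the ratio of GATA6 to GATA4, at -3.56 (0.907). H1 S4 replicate 2 was high for IP over input of GATA4 peak 2801, at 2.26 (0.862), and H1 S4 replicate 1 was low for GATA4 peak 4151, at -0.54 (0.878). MEL1 S6 replicate 2 was high for the within-gene log2 odds of GATA6, at 2.83 (0.872).

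By edgeR's line-by-stage interaction, the lines differed in the input change of GATA4 from S4 to S6 (MEL1 minus H1, 1.75) and from S3 to S6 (1.14), in the change of IP over input of GATA4 peak 2801 from S0 to S3 (-2.06) and in that of GATA4 peak 3951 from S3 to S4 (3.97).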

How the results depend on the processing

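Over 75 results, 1356 alternative values were computed, of which 1207 kept their direction and their side of the threshold, 96 lost a call, 29 gained one and 24 changed sign. The cause of these changes was not tested. A preparation left out leaves 1 in its line and stage, which is assumed to vary like the others. The setting without both MEL1 S4 preparations and the block of each preparation for changes in IP over input were chosen after seeing the data.

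In input, GATA4 was not called from S3 to S4 with no cell line in the model (-1.81) or without both MEL1 S4 preparations (-1.33), nor from S4 to S6 with no cell line (-1.79). GATA6 was called from S3 to S6 in H1 alone (-1.21) and changed sign from S4 to S6 in MEL1 alone (0.26) and between -0.21 and 0.02 with a preparation left out. In H1 alone GATA5 had 0.89 and SOX9 -0.55 from S3 to S6.

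In IP over input, peak 2801 was called from S0 to S3 by DESeq2 (2.26), in H1 (3.43) and MEL1 alone (1.29), without both MEL1 S4 preparations (2.37) and in IP alone (8.49). Of all peaks these settings called 0.64%, 6.09%, 8.8%, 0.188% and 20.9%. The change of peak 2801 ran from 1.94 to 2.91 with a preparation left out. From S3 to S4 it was called with only those stages (-1.23), in H1 (-1.23) and MEL1 alone (-1.26) and in IP alone (-2.49). In that step these settings called 5.65%, 46.2%, 12.7% and 9.16% of all peaks. From S3 to S6 peak 2801 was called in H1 alone (-1.57) and IP alone (-4.73), against 5.61% and 6.7% of all peaks. Its change of 0.01 from S4 to S6 became -0.23 (DESeq2), -0.22 (RLE), -0.15 (upper quartile, and without both MEL1 S4 preparations), -0.02 (only those stages), -0.33 (H1 alone), -0.11 (IP and input normalised separately), -0.03 (thinned IP), -2.25 (IP alone) and -0.19 to 0.27 with a preparation left out. At S0 it was -0.21 in H1 alone, 1.42 in MEL1 alone and 0.06 to 1.02 with a preparation left out. Peak 2251 had 0.36 from S4 to S6 in MEL1 alone, -1.23 from S3 to S6 in IP alone and, at S0, -1.26 by DESeq2 and -1.24 with RLE. From S0 to S3 it ran from 3.1 to 3.4 with a preparation left out.

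With a preparation left out, the line difference (MEL1 minus H1) from S0 to S3 ran from 0.34 to 1.28 for GATA4 input, 0.49 to 1.92 for GATA6 input and -2.98 to -1.2 for peak 2801. From S3 to S4 it ran from -0.19 to 0.14 for GATA6 input and 3.1 to 9.22 for peak 3951, and the ratio of GATA6 to GATA4 rose by 0.88 to 1.14.

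Replicate numbers were not taken to pair the preparations, since same-numbered correlations of input were over 0.1 in 0 of 6 pairs of H1 and 5 of 6 of MEL1 (0.09 to 0.18), and those of IP in 0 and 1 of 6. With the replicate number as a block, 93 genes were called from S3 to S4 in place of 147, the ratio changes had p = 0.125 (exact sign-flip test, the smallest it allows), GATA4 peak 3951 at S6 was not called (-1.84), and no call of GATA4, GATA6, peak 2801 or peak 2251 changed in the fitted models. With a replicate block of each preparation, which pairs its IP and input library, peak 2801 was called from S0 to S3 (2.32) and from S3 to S4 (-1.3).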
